A study of Mus musculus with 8 samples.

Results

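The genes described here are 10 members of the Wnt pathway: the ligands Wnt4, Wnt5a, Wnt7b, Wnt9a and Wnt10a, the secreted inhibitor Sfrp1, the nuclear factors Lef1, Tcf7l1 and Tcf7l2, and the feedback target Axin2. They were chosen by symbol, with earlier results of these data in view, out of 55450 gene identifiers, and every member was found. RNA was counted per gene in 8 libraries of PyMT-1099 cells, a breast cancer line from a mouse mammary tumour driven by the polyoma middle T antigen. There were 4 groups of 2 libraries: parental cells without treatment, parental cells kept for 10 days with 2 ng/ml TGF-β, Agps knockout cells without treatment, and knockout cells given the same TGF-β treatment. The product of Agps makes ether lipid precursors in peroxisomes, and TGF-β is a cytokine that drives epithelial cells towards a mesenchymal state. All groups descend from the PyMT-1099 line, and all knockout libraries carry the same code, SCC10. The labels do not say whether SCC10 is a single clone, so the effect of the gene and the history of that line cannot be told apart.

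Wnt proteins are lipid-modified ligands that bind Frizzled receptors. With the co-receptors Lrp5 and Lrp6 they stop the destruction complex from degrading β-catenin, which then enters the nucleus and works with TCF and LEF factors, and other Wnt signals act on cell polarity without β-catenin. In the mammary gland Wnt4 is known for ductal side branching, and Wnt1 is the ligand whose activation by a mouse virus causes mammary tumours.

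Of the 10 members, 5 had enough counts to be tested (Wnt7b, Wnt4, Wnt9a, Axin2 and Tcf7l2) and 5 were below detection. On GRCm38 the detected members lie at chr15:85535437-85582473 (Wnt7b, minus strand), chr4:137277489-137299726 (Wnt4, plus strand), chr11:59306928-59333552 (Wnt9a, plus strand), chr11:108920349-108950783 (Axin2, plus strand), and chr19:55741820-55933654 (Tcf7l2, plus strand). Wnt10a, Lef1 and Sfrp1 had 0 counts in all 8 libraries. Wnt5a had 1 count in each parental TGF-β library and in knockout TGF-β replicate 2, and 0 elsewhere. Tcf7l1 had between 0 and 2 counts per library. The library totals lay between 17007268 and 21311831 counts, so 3 counts over a group, taken as the floor, stand for at most 0.0834 CPM, the count scaled to a common library size with TMM factors. A gene can be present below that level, and the floor and the counting intervals given here cover counting error only. Of the 50-base words in the exons of Lef1 and Sfrp1, 0.462% and 0.255% also occur in other genes, and for Wnt10a none do. Of the Lef1 exon bases, 13.7% lie under a gene on the opposite strand.

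The upstream sequences of 3 members that were higher with TGF-β are shown because they differ in make-up and in the motifs they hold. They are RefSeq sequences of GRCm38.p6, read 5′ to 3′ on the plus strand, from 250 bases before the RefSeq start to that start or, where the gene annotation begins further upstream, to the base before it. Capitals mark a motif match. The Wnt4 stretch, chr4:137277385-137277488, ends 146 bases before the RefSeq start, the Wnt9a stretch is chr11:59306680-59306927, and the Axin2 stretch is chr11:108920099-108920348.
Wnt4: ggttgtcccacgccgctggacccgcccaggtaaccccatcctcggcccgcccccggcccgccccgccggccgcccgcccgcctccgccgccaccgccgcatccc
Wnt9a: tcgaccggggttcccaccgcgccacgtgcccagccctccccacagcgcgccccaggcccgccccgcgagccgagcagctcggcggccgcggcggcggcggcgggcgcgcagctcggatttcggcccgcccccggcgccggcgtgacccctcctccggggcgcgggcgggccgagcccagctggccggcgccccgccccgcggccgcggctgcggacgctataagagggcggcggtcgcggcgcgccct
Axin2: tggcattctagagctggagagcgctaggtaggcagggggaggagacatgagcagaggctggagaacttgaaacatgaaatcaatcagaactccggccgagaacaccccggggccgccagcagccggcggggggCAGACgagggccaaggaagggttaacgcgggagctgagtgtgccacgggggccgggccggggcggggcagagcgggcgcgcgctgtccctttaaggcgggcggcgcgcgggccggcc

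These stretches are rich in G and C: 83.7% of the 104 Wnt4 bases with 16 CpG pairs, 84.3% of the 248 Wnt9a bases with 48, and 69.2% of the 250 Axin2 bases with 24. The median over 32851 mouse promoters was 52.4% and 6 CpG pairs in 250 bases. Both strands of the full 250 bases were searched for 5 motifs, none of which contains another. The TCF and LEF core (CTTTG, then 2 bases that are each A or T) is in 14.8% of all promoter windows, and none of the 3 genes holds it. The E-box CAGGTG of ZEB and SNAI factors is in 17.2% of windows. Wnt4 holds it on the minus strand, 15 to 10 bases before the RefSeq start, beyond the stretch shown. The short SMAD motif CAGAC is in 42.2% of windows, and Axin2 holds it at 117 to 113 bases before the start, where the capitals stand. The SMAD box GTCTAGAC (0.167% of windows) and the AP-1 site TGAGTCA (4.46%) are in none of the 3. Tcf7l2 has a TCF and LEF core, CTTTGTT, 14 to 8 bases before its second listed start. The counts are per gene and do not show which start was used.

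The targeted gene Agps stood at 343.5 ± 19.4 CPM in untreated parental cells and 265.5 ± 0.98 with TGF-β, against 31.1 ± 2.52 and 39.8 ± 5.87 in the knockout libraries (mean ± SD, n = 2 throughout). The epithelial genes Krt8, Krt18 and Cdh1 were present in every group, while Epcam and Cldn7 had 0 counts in all libraries. On average Cdh1 fell with TGF-β from 641.9 to 133.8 CPM in parental and from 302.0 to 52.3 in knockout cells. Krt19 fell from 1723 to 352 and from 1168 to 149, and Krt5 from 5.33 to 0.43 and from 3.85 to 0.32. Krt14 rose from 0.36 to 5.10 and from 0.31 to 10.1 (all called). Krt8 and Krt18 were called lower in parental cells and not called in knockout cells. Knockout against parental, Cdh1 was lower by -1.09 untreated and -1.35 with TGF-β on the log2 scale. Over 9 epithelial markers the summed level was 5807 to 6401 CPM in untreated parental cells, 3130 to 3333 with TGF-β, 4185 to 4509 in untreated knockout cells and 3246 to 3457 with TGF-β. The 6 fibroblast markers summed to 1.35 to 1.37, 127 to 138, 0.531 to 0.696 and 94.8 to 102 CPM in the same order, nearly all of it Col1a1, with Dcn at 0 in both TGF-β groups and Thy1 at 0 in all. The 7 immune markers summed to 32.3 to 32.6, 28.1 to 30.5, 32.5 to 32.9 and 17.2 to 18.4 CPM, with Cd3e and Adgre1 at 0. Within them Csf1r fell with TGF-β from 30.9 ± 0.48 to 22.3 ± 1.1 CPM in parental and from 30.3 ± 1.08 to 6.85 ± 0.60 in knockout cells, and Cd68 rose from 1.47 ± 0.74 to 6.69 ± 0.40 and from 2.33 ± 0.80 to 10.8 ± 1.45 (all called). The 5 endothelial markers were at 76.5 CPM in parental TGF-β libraries and at most 8.24 elsewhere, nearly all of it Cdh5 with TGF-β (75.6 and 6.69 CPM), with Pecam1 at 0.85 CPM or less on average and Emcn at 0. What part these marker shifts have in the Wnt values was not tested. Replicate libraries correlated at r = 0.991 to 0.994 across genes. These are bulk libraries, so fewer cells of a type and less RNA per cell cannot be told apart.

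Wnt7b, a ligand of branching epithelia, was the most abundant member in every group. The opposite-strand gene AU022754 covers 6.61% of its exon bases, and the strand setting of the counting is not given. Untreated parental cells held 173.2 and 181.1 CPM, and TGF-β brought 317.3 and 288.8. Untreated knockout cells held 90.0 and 100.8 CPM, and with TGF-β 315.0 and 346.5. The untreated groups therefore did not overlap, with the knockout lower, whereas the TGF-β groups overlapped. The fitted log2 change with TGF-β was 0.77 ± 0.09 (SE) in parental cells and 1.79 ± 0.10 in knockout cells. Knockout against parental it was -0.89 ± 0.09 untreated and 0.13 ± 0.09 with TGF-β, the latter between 0.06 and 0.19 when a treated library was left out.

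Wnt4, the ligand of ductal side branching, was higher with TGF-β in the parental line, and its change in the knockout was about as large as its error. Parental libraries held 10.9 and 8.90 CPM untreated and 28.5 and 27.3 with TGF-β. Knockout libraries held 4.88 and 4.22 CPM untreated and 4.05 and 3.88 with TGF-β, so that all 4 lay below every parental library, the treated ones just under the untreated ones. The log2 change with TGF-β was 1.49 ± 0.15 in parental cells and -0.20 ± 0.18 in knockout cells, the latter -0.09 without untreated knockout replicate 1 and -0.30 without replicate 2. The line difference was -1.12 ± 0.16 untreated and -2.81 ± 0.16 with TGF-β. Of the Wnt4 50-base exon words 3.85% also occur in other genes.

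Wnt9a, a ligand known from joint and skeletal development, was low without TGF-β and far higher with it in both lines. Parental libraries held 0.685 and 0.761 CPM untreated and 31.8 and 33.7 with TGF-β. Knockout libraries held 1.11 and 1.76 CPM untreated and 24.5 and 22.4 with TGF-β. Treated and untreated libraries did not overlap in either line, and neither did the lines at either condition: the knockout was the higher one untreated and the lower one with TGF-β. The log2 change was 5.49 ± 0.22 in parental and 4.02 ± 0.19 in knockout cells, the untreated counts behind it being 26 and 61 per group. The line difference was 0.99 ± 0.31 untreated, 0.62 without knockout replicate 2 and 1.28 without knockout replicate 1, where it passed the threshold. With TGF-β it was -0.48 ± 0.14, between -0.54 and -0.40 when any of the 4 treated libraries was left out, each of which ended the call.

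Axin2, a scaffold of the destruction complex and a widely used readout of β-catenin activity, was a low gene throughout. Parental libraries held 0.791 and 0.879 CPM untreated and 4.03 and 3.16 with TGF-β. Knockout libraries held 1.4 and 0.510 CPM untreated and 2.93 and 2.61 with TGF-β. Treated libraries stood above untreated ones in both lines, and the untreated knockout libraries lay on either side of the parental pair. The log2 change with TGF-β was 2.10 ± 0.38 in parental and 1.54 ± 0.37 in knockout cells, the latter 2.42 without untreated knockout replicate 1 and 0.98 without replicate 2. Knockout against parental it was 0.19 ± 0.45 untreated, with the sign set by the library left out (-0.70 without knockout replicate 1, 0.74 without replicate 2), and -0.38 ± 0.32 with TGF-β, which was -0.19 without parental TGF-β replicate 1. Of its exon bases 3.80% lie under the opposite-strand gene Gm11670, and the strand setting of the counting is not given in the sources used here.

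Tcf7l2, which encodes the factor TCF4 that binds DNA with β-catenin, moved least. Parental libraries held 71.9 and 62.6 CPM untreated and 52.9 and 51.2 with TGF-β. Knockout libraries held 66.1 and 66.3 CPM untreated and 63.7 and 64.6 with TGF-β. The treated parental libraries were the lowest, below all others, and the untreated lines overlapped. The log2 change with TGF-β was -0.37 ± 0.10 in parental cells, a call that ended without untreated replicate 1 (-0.27) or without TGF-β replicate 1 (-0.39) or 2 (-0.35), and -0.04 ± 0.10 in knockout cells. Knockout against parental it was -0.02 ± 0.10 untreated and 0.30 ± 0.10 with TGF-β.

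**Figure D1:**
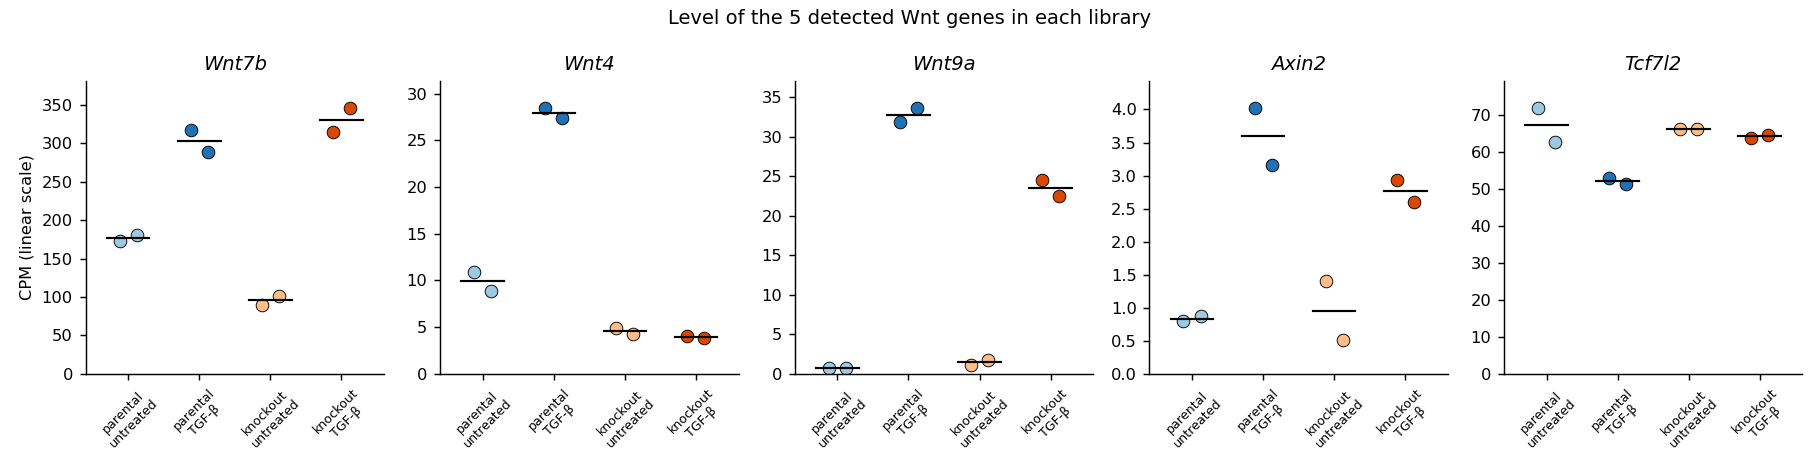
Each point is the level of a gene in a library in CPM, on a linear axis from 0 that differs between genes, for the 4 groups of 2 libraries, and each bar is the group mean. Wnt4 is highest in the parental TGF-β libraries (28.5 and 27.3 CPM), whereas Wnt9a and Axin2 are higher with TGF-β in both lines.

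**Figure D2:**
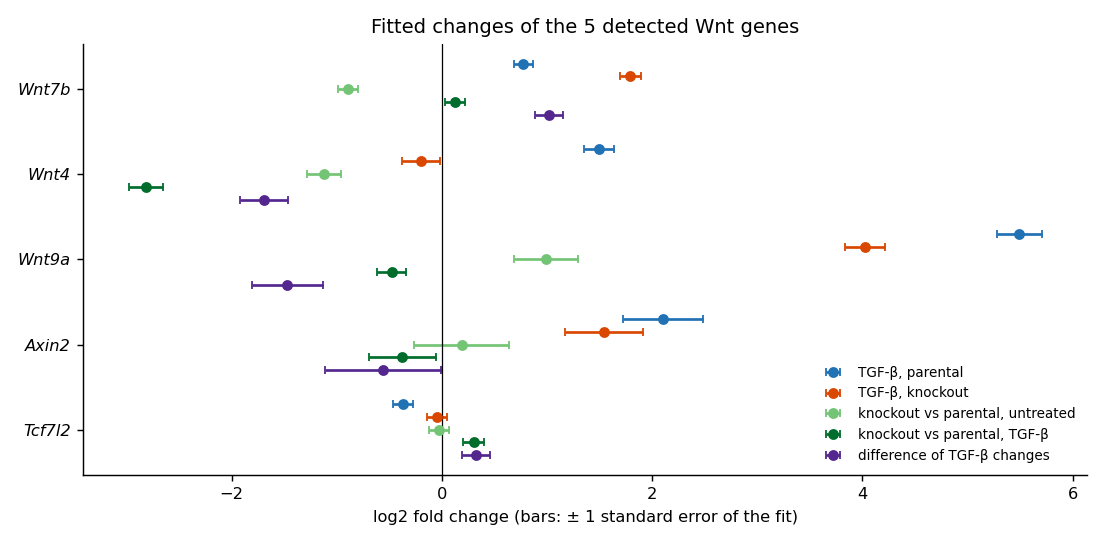
Fitted log2 fold changes of the 5 detected genes with bars of 1 standard error, for TGF-β in each line, for knockout against parental at each condition, and for the knockout change with TGF-β minus the parental one. Wnt7b and Wnt4 have their differences on opposite sides of 0, at 1.02 and -1.69.

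A gene was called at an adjusted p under 0.05 in edgeR's quasi-likelihood test with Benjamini-Hochberg adjustment over 14641 genes. With TGF-β in parental cells all 5 detected members were called, 4 higher and 1 lower, where 42.5% of all tested genes were called (21.3% higher, 21.2% lower). In knockout cells 3 were called, all higher, against 41.4% of all genes (20.9% higher, 20.6% lower). Knockout against parental, 2 were called untreated (Wnt7b and Wnt4, both lower, against 13.7% of genes, 4.72% higher and 8.94% lower) and 2 with TGF-β (Wnt4 and Wnt9a, both lower, against 17.9%, 6.82% higher and 11.1% lower). The TGF-β changes of the lines differed for 3 members, Wnt7b higher by 1.02 ± 0.13 and Wnt4 and Wnt9a lower by -1.69 ± 0.23 and -1.47 ± 0.34 on the log2 scale, where 2.4% of genes were called (1.25% higher, 1.15% lower). For Axin2 and Tcf7l2 the differences were -0.56 ± 0.55 and 0.33 ± 0.14. The Axin2 difference was 0.32 without untreated knockout replicate 1, -1.12 without replicate 2 and -0.38 without parental TGF-β replicate 1. The members were chosen with these contrasts known, so the counts only describe the choice. Treated and untreated groups did not overlap for 72.1% of all tested genes in parental and 68.8% in knockout cells, and the lines did not overlap for 50.7% untreated and 61.3% with TGF-β.

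To compare levels between genes, CPM was divided by exon length and rescaled to the same total in each library (TPM). The order in untreated parental cells was Wnt7b at 141.2 ± 7.16 TPM, Tcf7l2 at 29.9 ± 2.35, Wnt4 at 9.21 ± 1.14, Wnt9a at 0.849 ± 0.08 and Axin2 at 0.592 ± 0.056. In parental TGF-β cells Wnt9a (37.9 ± 1.97) passed Wnt4 (25.6 ± 0.45) and Tcf7l2 (22.8 ± 0.24) into the next place after Wnt7b (238.0 ± 13). In untreated knockout cells the order was that of untreated parental cells, from Wnt7b at 78.0 ± 6.80 to Wnt9a at 1.73 ± 0.57 and Axin2 at 0.693 ± 0.45. In knockout TGF-β cells Tcf7l2 (29.3 ± 1.01) and Wnt9a (28.3 ± 1.1) did not differ beyond their spread, and Wnt4 stood at 3.79 ± 0.022 between them and Axin2 at 2.02 ± 0.12.

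Among all 19 mouse Wnt ligands, 5 passed the count filter, 7 had no count in any library and 7 had only a few. The summed ligand level was 151.5 ± 6.17 TPM in untreated parental cells and 321.7 ± 12.6 with TGF-β, and 84.2 ± 6.84 and 308.0 ± 22.4 in the knockout. Wnt7b made up 93.2%, 74%, 92.6% and 88.0% of that sum in the same order of groups. Wnt9a made up 0.559%, 11.8%, 2.03% and 9.22%. Wnt4 made up 6.10%, 7.97%, 5.19% and 1.23%, and Wnt7a 0.114%, 5.89%, 0.0331% and 0.933%. The parental and knockout TGF-β pools thus had similar sums and differed in make-up.

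**Figure D3:**
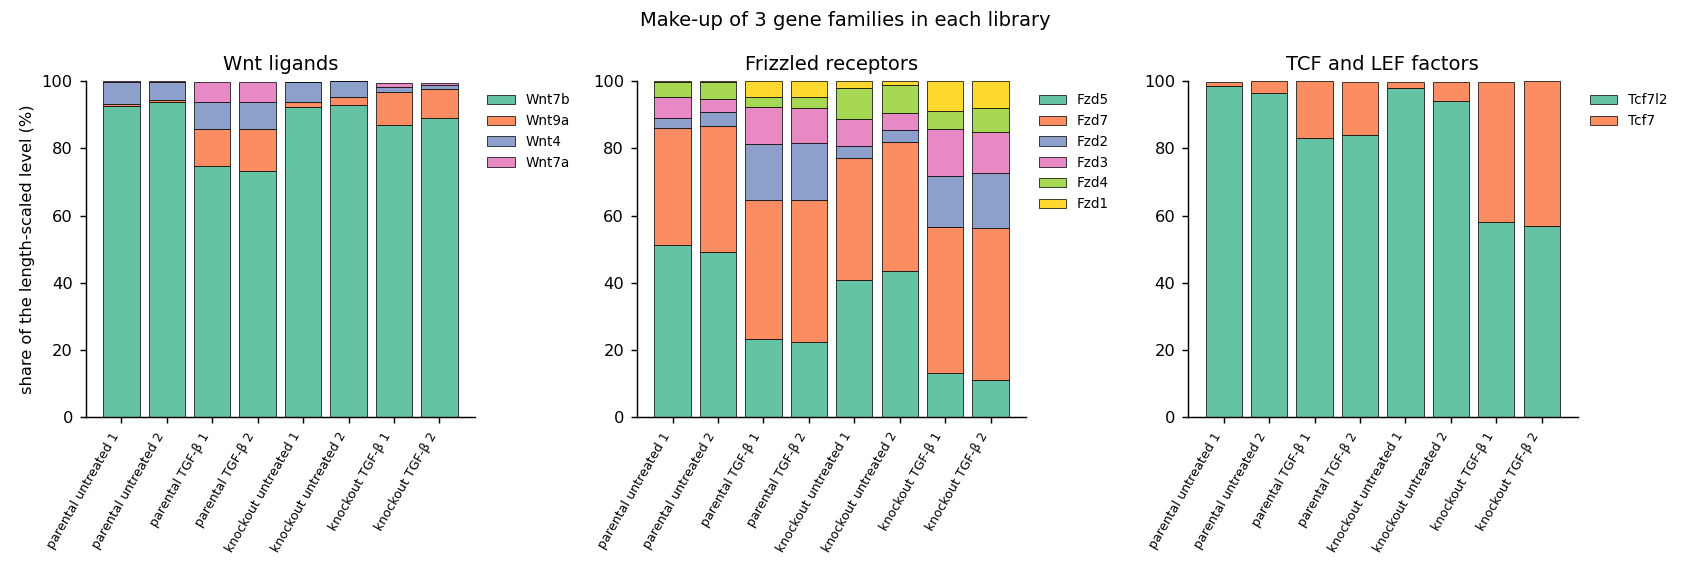
Stacked bars give the share of each gene in the length-scaled level of 3 families, in percent of the family sum for each of the 8 libraries, with genes under 1% in every library left out. Wnt7b fills most of the ligand bar everywhere, Fzd5 gives way to other Frizzled genes with TGF-β, and Tcf7 reaches 42.4% of the TCF and LEF sum in knockout TGF-β libraries.

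The rest of the pathway was read from 8 lists with 110 further genes, of which 62 were tested. Like the members, the lists were chosen with earlier results of these data known, so their shares only describe the choice. With TGF-β 41 of the 62 were called in parental cells (24 higher, 17 lower) and 40 in knockout cells (24 higher, 16 lower), that is 66.1% and 64.5% against the 42.5% and 41.4% of all genes. The median size of the log2 change over the 62 was 0.50 in parental and 0.44 in knockout cells, and over all tested genes 0.37 and 0.36. Knockout against parental, 14 were called untreated (7 in each direction) and 16 with TGF-β (9 higher, 7 lower), or 22.6% and 25.8% against 13.7% and 17.9%. The lines differed in their TGF-β change for 5 genes (4 higher, 1 lower), 8.06% against 2.4%. Each p below is from the same edgeR test, adjusted over all tested genes.

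Of 16 other ligands and secretion genes 4 were tested, and all 4 were called higher with TGF-β in both lines. Over all tested genes 21.3% were called higher in parental and 20.9% in knockout cells. Wnt7a, the close relative of Wnt7b, held 0.105 and 0.176 CPM in untreated parental cells and 16.5 and 14.7 with TGF-β, against 0 and 0.0464 and then 2.83 and 1.66 in the knockout. Its parental log2 change was 6.75 ± 0.39 (adjusted p = 1.04e-07), and in the knockout 86 counts against 1 gave a ratio of 94.7 with a counting interval of 16.6 to 3785. With TGF-β the knockout was lower by -2.79 ± 0.25 on the log2 scale (adjusted p = 3.20e-05). The difference of the changes was not called, and the untreated knockout held 1 count. The standard error of 3.63 for that difference is its size over the square root of its F statistic. Such an error is unstable where F is near 0. Wnt1, named here after its values were seen, had 0 counts in all untreated libraries and 19 and 29 counts in the parental and knockout TGF-β groups. Against the floor of 3 counts over a group these levels were at least 6.26-fold and 10.7-fold higher.

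Porcn, which attaches the lipid that Wnt proteins need, rose by 1.53 ± 0.17 (adjusted p = 2.66e-05) in parental and 1.87 ± 0.18 (adjusted p = 6.88e-06) in knockout cells. Wls, the carrier that brings Wnt proteins to the cell surface, rose by 0.68 ± 0.10 (adjusted p = 2.59e-04) and 0.84 ± 0.10 (adjusted p = 5.39e-05). Both were lower in the untreated knockout, Wls by -0.75 ± 0.10 (adjusted p = 6.85e-04) and Porcn by -0.69 ± 0.19 (adjusted p = 0.036). The Porcn call ended without any library other than untreated parental replicate 1, and without untreated parental replicate 2 its value was -0.41. The 44 tested genes within 5 Mb of Porcn on chromosome X had a median of -0.78 in that contrast, while the median over the whole chromosome was -0.02. For Wls, on chromosome 3, the whole-chromosome median was -0.28 and that within 5 Mb was -0.06, so its difference stood at -0.47 or -0.69 after subtraction. What part such regional shifts have in the line differences was not tested. For Wnt7b, on chromosome 15 with a median of -0.17 untreated, the difference of -0.89 was -0.72 after subtracting the chromosome median and -0.69 after subtracting the median within 5 Mb. For Wnt4 the local medians were 0.03, and its differences of -1.12 and -2.81 stood at -1.16 and -2.85 after subtraction.

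Of 16 receptors and co-receptors 10 were tested. With TGF-β 8 were called in parental cells (4 in each direction) and 7 in knockout cells (4 higher, 3 lower). These shares were 80% and 70%, against 42.5% and 41.4% of all genes. Ror1, a receptor for non-canonical Wnt signals, was the gene with the pattern most like Wnt7b. It held 24.2 and 23.5 CPM in untreated parental cells and 46.9 and 47.9 with TGF-β, and 11.2 and 13.3 and then 43.8 and 46.3 in the knockout. It rose by 0.99 ± 0.11 in parental (adjusted p = 2.27e-05) and 1.88 ± 0.12 in knockout cells (adjusted p = 1.54e-07), and the untreated knockout was lower by -0.96 ± 0.12 (adjusted p = 2.93e-04). The difference of the changes was 0.89 ± 0.16 (adjusted p = 0.0146). That call ended without parental TGF-β replicate 1 (0.88) or 2 (0.91) or without knockout TGF-β replicate 2 (0.87).

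The Frizzled genes changed in make-up. Fzd5 held 63.5 and 80.4 CPM in untreated parental cells and 29.6 and 29.2 with TGF-β, against 57.3 and 80.8 and then 15.4 and 13.7 in the knockout. Its knockout change was -2.25 ± 0.17 (adjusted p = 9.63e-07), and with TGF-β the knockout was lower than the parental line by -1.02 ± 0.17 (adjusted p = 2.22e-03), while the difference of the changes missed the threshold (-0.96 ± 0.23, adjusted p = 0.0618). Of its exon bases 17.8% lie under an opposite-strand gene. Its share of the Frizzled sum was 50.2% and 22.9% in parental cells and 42.2% and 12.2% in the knockout, untreated and with TGF-β. Fzd7 made up 36.0%, 41.8%, 37.5% and 44.3%, and Fzd2 made up 3.77%, 16.9%, 3.51% and 15.6%.

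Fzd1 held 0.264 and 0.176 CPM in untreated parental cells against 1.64 and 1.30 in the knockout, a difference of 2.69 ± 0.39 (adjusted p = 8.47e-04). It rose with TGF-β by 4.04 ± 0.34 in parental (adjusted p = 2.19e-06) and 2.07 ± 0.22 in knockout cells (adjusted p = 1.57e-05). With TGF-β the knockout was higher by 0.72 ± 0.20 (adjusted p = 0.0301), a call that ended without any of the 4 treated libraries (0.68 to 0.77). The change was smaller in the knockout by -1.97 ± 0.45 (adjusted p = 0.0469), which missed the threshold without any library other than untreated knockout replicate 2 (values from -2.30 to -1.73). Lrp5, the co-receptor, was higher in the knockout with TGF-β by 0.65 ± 0.10 (adjusted p = 8.61e-04), with 102.7 and 107.5 CPM in parental and 151.2 and 177.8 in knockout libraries. Fzd4 was higher in the untreated knockout by 1.06 ± 0.22 (adjusted p = 7.37e-03).

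Most inhibitors were below the filter, and those measured moved in both directions. Besides Sfrp1, which had no counts, 3 of 16 secreted and surface inhibitors were tested. Trabd2b, a membrane protease that inactivates Wnt proteins, had the lowest adjusted p among them: it fell in knockout cells by 1.41 ± 0.18 on the log2 scale (adjusted p = 6.98e-05), from 12.4 and 12.7 to 4.35 and 5.10 CPM. In parental cells it went from 10.3 and 7.61 to 6.78 and 6.61 CPM and was not called. Kremen1, a receptor for Dkk inhibitors, rose by 0.49 ± 0.13 in parental cells (adjusted p = 9.76e-03; 0.35 and not called without TGF-β replicate 1) and 0.64 ± 0.13 in knockout cells (adjusted p = 1.59e-03). Apcdd1, a membrane inhibitor of Wnt receptors, was one of the genes called in opposite directions in the lines, at -0.58 ± 0.16 in parental (adjusted p = 0.0138) and 0.58 ± 0.16 in knockout cells (adjusted p = 0.0102). It held 14.9 and 16.1 CPM in untreated parental cells and 9.17 and 11.6 with TGF-β, against 12 and 14.7 and then 18.55 and 21.5 in the knockout. With TGF-β it was higher in the knockout than in the parental line by 0.95 ± 0.16 (adjusted p = 1.99e-03). The calls within a line ended without untreated parental replicate 2 (-0.53) or parental TGF-β replicate 1 (-0.42), and without untreated knockout replicate 1 (0.45) or knockout TGF-β replicate 2 (0.48).

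On the R-spondin axis, 4 of 9 genes were tested. Lgr4, the R-spondin receptor with 111.5 and 111.2 CPM in untreated parental and 107.1 and 119.0 in untreated knockout cells, fell by 1.66 ± 0.10 (adjusted p = 1.13e-07) and by 1.55 ± 0.10 (adjusted p = 1.62e-07) on the log2 scale. Its relative Lgr6 had 2 counts in each untreated group and 368 and 579 with TGF-β in parental and knockout cells, ratios of 182 (counting interval 49.97 to 1507) and 319 (87.9 to 2640). Rnf43, the ubiquitin ligase that removes Frizzled receptors and is itself a Wnt target, was named after its values were seen: 114 counts in the untreated parental libraries stood against 3 with TGF-β, a ratio of 38.5 (12.8 to 189), and the knockout libraries went from 2.95 and 2.92 CPM to 0 and 0.277. Lgr4 differed between the lines by 0.02 ± 0.09 untreated and 0.13 ± 0.10 with TGF-β.

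Of 15 genes of the destruction complex and cytoplasmic relay 14 were tested. With TGF-β 5 were called in parental cells (4 higher, 1 lower), 35.7% against the 42.5% of all genes, and 3 in knockout cells (2 higher, 1 lower), 21.4% against 41.4%. Ctnnb1, which encodes β-catenin, fell by 0.57 ± 0.09 (adjusted p = 3.04e-04) and by 0.44 ± 0.09 (adjusted p = 1.92e-03), from 1413 and 1257 to 892 and 904 CPM in parental cells. Of its exon bases 14.6% lie under an opposite-strand gene. Csnk1e, a casein kinase of the relay, rose by 0.87 ± 0.08 (adjusted p = 6.95e-06) and 0.95 ± 0.08 (adjusted p = 3.14e-06). In the untreated knockout it was lower by -0.31 ± 0.08 (adjusted p = 0.0328), a call that ended without any of the 4 untreated or the 2 parental TGF-β libraries (-0.32 to -0.30). The median within 5 Mb of Csnk1e was -0.26 in that contrast. Tnks, which marks Axin proteins for degradation, rose in parental cells by 0.28 ± 0.09 (adjusted p = 0.0228), but missed without untreated replicate 1 or TGF-β replicate 1 (both 0.21). With TGF-β it was lower in the knockout by -0.30 ± 0.09 (adjusted p = 0.0316), a call that ended without any of the 4 treated libraries (-0.37 to -0.24), on a chromosome with a median of -0.47. Dvl1, a Dishevelled that passes the signal on from Frizzled, rose in knockout cells by 0.27 ± 0.09 (adjusted p = 0.0352), a call that ended without any library other than the untreated parental ones (0.23 to 0.31).

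With Lef1 and Tcf7l1 below detection, Tcf7 was the other TCF factor measured beside Tcf7l2. Parental libraries held 0.264 and 0.703 CPM untreated and 3.23 and 2.86 with TGF-β. Knockout libraries held 0.338 and 1.21 CPM untreated and 13.6 and 14.7 with TGF-β, the highest of all groups. Tcf7 rose by 2.67 ± 0.47 in parental (adjusted p = 8.20e-04) and 4.17 ± 0.36 in knockout cells (adjusted p = 2.67e-06), and with TGF-β the knockout was higher by 2.21 ± 0.30 (adjusted p = 5.51e-04). The difference of the changes, 1.498 ± 0.698, was not called (adjusted p = 0.374). In the TCF and LEF sum the share of Tcf7 was 2.41% and 16.3% in parental and 3.70% and 42.4% in knockout cells, and Tcf7l2 made up nearly all of the rest.

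Of 9 nuclear partners and repressors tested, 4 were called with TGF-β in parental cells (2 in each direction), 44.4% against the 42.5% of all genes. In knockout cells 6 were called (3 in each direction), 66.7% against 41.4%. The parental share was thus close to that of all genes. Bcl9, which links β-catenin to its co-activators, rose by 0.57 ± 0.10 (adjusted p = 5.73e-04) and 0.43 ± 0.10 (adjusted p = 3.71e-03). Tle5, a short member of the Groucho co-repressor family, fell by 0.51 ± 0.10 (adjusted p = 1.88e-03) and by 0.45 ± 0.10 (adjusted p = 4.39e-03; -0.33 and not called without knockout TGF-β replicate 1). The co-repressor Tle3 was higher in the knockout untreated by 0.61 ± 0.10 (adjusted p = 1.95e-03) and with TGF-β by 0.63 ± 0.10 (adjusted p = 1.46e-03). The co-repressor Tle4 was lower with TGF-β by -0.39 ± 0.11 (adjusted p = 0.0255; -0.45 to -0.33 and not called without any of the 4 treated libraries). Pygo2, a partner of Bcl9 on chromosome 3, was lower in the untreated knockout by -0.35 ± 0.09 (adjusted p = 0.0246), where the chromosome median was -0.28, and 5 of the 8 left-out libraries ended that call: both of each parental group and untreated knockout replicate 2 (-0.38 to -0.30).

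Besides Axin2, 11 of 18 genes known as Wnt targets in other tissues were tested. With TGF-β 10 were called in each line: 5 higher and 5 lower in parental, 6 higher and 4 lower in knockout cells. That was 90.9% in each line, against 42.5% and 41.4% of all genes. Several of these genes also answer to other pathways. Cd44, a hyaluronan receptor, rose by 1.49 ± 0.12 (adjusted p = 1.42e-06) and 1.76 ± 0.12 (adjusted p = 3.46e-07). Ccn4, a secreted matricellular protein, rose by 2.40 ± 0.19 (adjusted p = 1.44e-06) and 2.81 ± 0.20 (adjusted p = 4.33e-07). Id2, an inhibitor of bHLH factors, fell by 1.56 ± 0.14 (adjusted p = 4.47e-06) and by 2.27 ± 0.15 (adjusted p = 2.44e-07), and with TGF-β stood lower in the knockout by -1.11 ± 0.15 (adjusted p = 4.08e-04). Cdx2, a homeobox factor, was higher in the knockout with TGF-β by 0.84 ± 0.19 (adjusted p = 0.0116), and missed without parental TGF-β replicate 1 (0.89) or 2 (0.79) or knockout TGF-β replicate 2 (0.47). In the untreated knockout Ccnd1, which encodes cyclin D1, was higher by 0.42 ± 0.08 (adjusted p = 4.57e-03). Of its exon bases 23.4% lie under an opposite-strand gene. Ccn4 was lower there by -0.78 ± 0.19 (adjusted p = 0.0176), and missed without untreated parental or knockout replicate 2 (both -0.63). Fosl1, an AP-1 subunit, held 83.6 and 68.1 CPM in untreated parental cells and 47.8 and 50.4 with TGF-β, against 28.2 and 47.7 and then 60.7 and 64.6 in the knockout, the untreated knockout being lower by -0.999 ± 0.19 (adjusted p = 5.14e-03). Its changes differed between the lines by 1.35 ± 0.27 (adjusted p = 0.0264), a call that ended without any of the 4 TGF-β libraries (1.31 to 1.399). Of its exon bases 57.2% lie under the opposite-strand gene Ccdc85b, whose reads cannot be told apart from its own without a strand setting.

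In the planar polarity branch 7 of 10 genes were tested. With TGF-β 5 were called in parental (3 higher, 2 lower) and 4 in knockout cells (2 in each direction). That was 71.4% and 57.1%, against 42.5% and 41.4% of all genes. Vangl2, a core polarity protein, rose by 1.27 ± 0.20 (adjusted p = 3.00e-04) and 1.01 ± 0.18 (adjusted p = 7.96e-04). It was higher in the untreated knockout by 0.74 ± 0.20 (adjusted p = 0.0295), 0.43 and not called without untreated parental replicate 1, and also missed without untreated knockout replicate 2 (0.67) or either knockout TGF-β library (0.73 and 0.74). Daam1, a formin that binds Dishevelled, rose in parental cells by 0.50 ± 0.10 (adjusted p = 2.09e-03) and was higher in the untreated knockout by 0.44 ± 0.10 (adjusted p = 0.0144), which missed without untreated parental replicate 1 (0.33) or untreated knockout replicate 2 (0.34). Its relative Daam2 had 2 counts in untreated and 155 in TGF-β parental libraries, a ratio of 76.6 (counting interval 20.8 to 638), and rose in knockout cells by 5.03 ± 0.55 (adjusted p = 1.92e-05), 8.96 without untreated knockout replicate 1. Vangl1 fell in knockout cells by 0.42 ± 0.11 (adjusted p = 6.81e-03), and missed without untreated replicate 2 (-0.33) or TGF-β replicate 2 (-0.37). With TGF-β the polarity cadherin Celsr2, on chromosome 3, was lower in the knockout by -0.50 ± 0.10 (adjusted p = 4.08e-03). The chromosome median there was -0.30 and that within 5 Mb -0.37, so its difference stood at -0.20 or -0.14 after subtraction. Celsr1 was higher with TGF-β by 0.37 ± 0.10 (adjusted p = 0.0307). It missed without parental TGF-β replicate 1 (0.33) or 2 (0.41) or knockout TGF-β replicate 2 (0.26).

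Across the 67 tested genes, members included, 39 were called with TGF-β in both lines, 37 in the same direction and 2 (Apcdd1 and Fosl1) in opposite ones. A further 7 passed in parental and missed in knockout cells and 4 the reverse, which does not show that their changes differ. The log2 changes in the lines had r = 0.951 over the 67 genes and 0.866 over the 62 that had more than 3 counts in every group. The same counts and r were not worked out over all tested genes, of which 42.5% (parental) and 41.4% (knockout) were called. The agreement is therefore not read as a trait of these genes. Genes are not independent replicates, and these lines share no library. Wnt4 lay below the line of equal change, at 1.49 in parental and -0.20 in knockout cells.

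**Figure D4:**
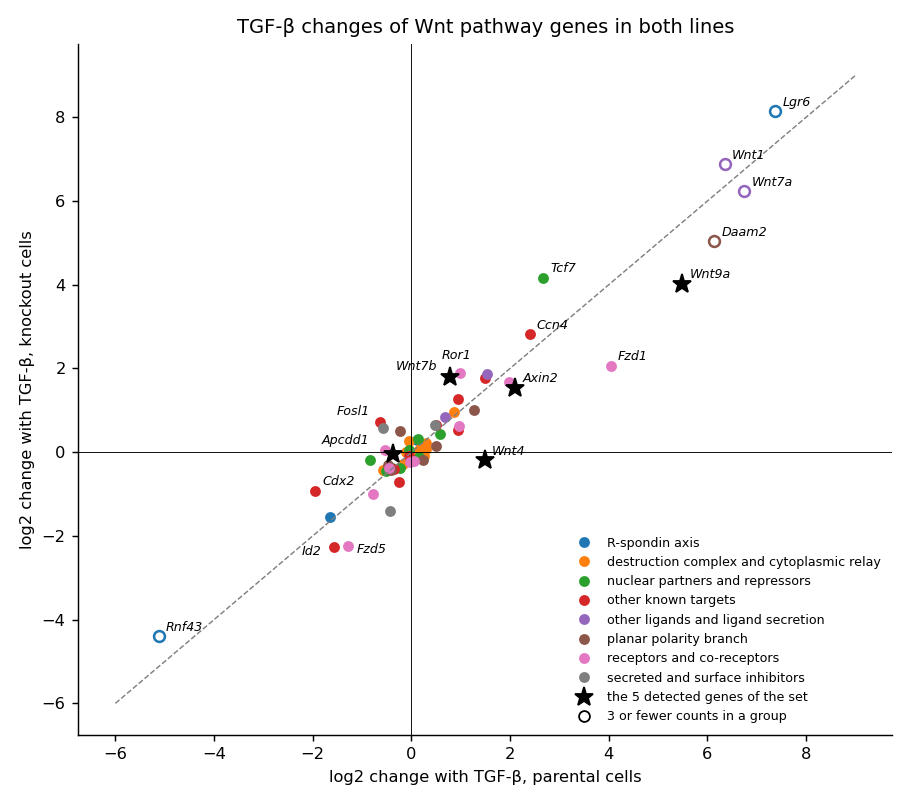
Log2 change with TGF-β in parental cells (x axis) and in knockout cells (y axis) for 67 tested Wnt pathway genes, coloured by role, with stars for the 5 detected genes of the set and a dashed line of equal change. Open circles had 3 or fewer counts in a group and their position depends on the fit's prior count. Most genes lie along the line, and Wnt4 lies below it near 0 on the y axis.

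Over the 8 libraries and 9326 genes with an average log2 CPM of at least 3, the gene whose log2 CPM had the highest Pearson r with each member was A630089N07Rik for Wnt4 (0.994), Ror1 for Wnt7b (0.993), Jmjd4 for Wnt9a (0.998), Nop14 for Axin2 (0.988) and Mob3c for Tcf7l2 (0.986). These libraries share the group structure, so many genes correlate: 423 had an r above 0.95 with Wnt9a and 129 with Wnt7b, but 22 with Wnt4 and 11 with Tcf7l2. A630089N07Rik held 13.9 ± 0.77 and 23.0 ± 0.87 CPM in parental and 10.0 ± 0.52 and 10.1 ± 0.17 in knockout cells, untreated and with TGF-β, so like Wnt4 it was highest in the parental TGF-β group. Jmjd4 lies 116.5 kb from the end of Wnt9a on chromosome 11.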

How the data were processed

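PolyA RNA of 8 libraries was sequenced. The authors deposited raw counts per gene for each library, 55450 identifiers, of which 30946 had a count. Per the submitters' processing notes the tools were STAR 2.7.1a, featureCounts 1.6.2 and DESeq2 1.26.0 with GRCm38 (mm10), and the strand setting is not given in the sources used here. A normalized table of the series was not used. The members, the lists and the alternatives were chosen with earlier results of these data known. Genes were filtered with filterByExpr (minimum count 10), which left 14641 genes with 99.9% of the counts, scaled by TMM and fitted with edgeR 4.0.16 in R 4.3.3 (quasi-likelihood, 1 mean per group, 4 residual degrees of freedom, Benjamini-Hochberg over all genes, threshold 0.05). Each standard error of an edgeR log2 change is the size of that change over the square root of the test's F statistic. The labels do not say that replicates were separate cultures, so p-values speak of library-to-library spread alone, technical or not. Named were all members, Agps, up to 3 called genes of lowest adjusted p per list and contrast (average log2 CPM 1 or more), and the gene most like each detected member. Lengths, positions and overlaps came from the gene annotation of GRCm38, and Tle5 was matched through its older symbol Aes. Of the members, 6 had a RefSeq promoter sequence. The script was tested on simulated data. Alternatives were upper quartile and RLE scaling, no filter, a threshold of 0.01, a replicate block, only the groups compared, DESeq2 1.42.0, each library left out, and subtraction of chromosome or, added after seeing the data, 5 Mb medians.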

Additional observations from a re-analysis of the deposited data

Results flagged for a closer look

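For 5 of the 62 other pathway genes (8.06%, against 2.4% of all genes) the TGF-β change differed between the lines by the test of the difference itself. The values are knockout minus parental on the log2 scale. In edgeR's test, adjusted over all genes, Ror1 differed by 0.89 ± 0.16 (adjusted p = 0.0146), Apcdd1 by 1.16 ± 0.23 (adjusted p = 0.0225), Fosl1 by 1.35 ± 0.27 (adjusted p = 0.0264), Lrp5 by 0.59 ± 0.13 (adjusted p = 0.0464) and Fzd1 by -1.97 ± 0.45 (adjusted p = 0.0469). The Apcdd1 call ended without parental TGF-β replicate 1 (1.00) or without knockout TGF-β replicate 1 (1.27) or 2 (1.07). The Lrp5 call ended without any of 6 libraries (0.48 to 0.63). The Ror1, Fosl1 and Fzd1 calls were each lost with 1 library left out as well. The pathway lists were chosen with earlier results of these data known, so their share of calls is a description. For 3 members, whose choice also used these data, the same quantity is likewise a description: Wnt7b 1.02 ± 0.13, Wnt4 -1.69 ± 0.23 and Wnt9a -1.47 ± 0.34. The Wnt9a call ended without any library other than untreated knockout replicate 1 (-1.54 to -1.10).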

How the results depend on the processing

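Of the 62 other pathway genes, the counts called were 41 and 40 with TGF-β in parental and knockout cells, and stayed between 32 and 43 and between 33 and 41 with 1 library left out. Knockout against parental untreated, 14 were called, 7 at a threshold of 0.01, 7 with only the 2 groups compared and 9 to 14 with 1 library left out. With TGF-β, 16 were called, 9 at 0.01, 26 with only the 2 groups and 9 to 19 with 1 library left out. The difference of the TGF-β changes was called for 5, for 0 at 0.01, 11 without the filter, 8 with DESeq2 and 0 (without parental TGF-β replicate 1) to 6 with 1 library left out. The labels do not say whether same-numbered libraries share anything, and the main fit had no block for the number. Deviations of same-numbered libraries correlated at 0.0218 to 0.308 across genes, highest between the 2 untreated groups. These values do not settle whether the numbers mark something shared. With a replicate block the difference was called for 10 genes, and the other counts were 44, 42, 17 and 19. The Porcn difference, untreated, turned to 0.0904 after subtracting the median within 5 Mb, and the Tnks difference with TGF-β (-0.30) to 0.17 after subtracting the chromosome 8 median of -0.47. Of the member values under alternatives 362 stayed called or stayed uncalled, 17 lost the call, 9 gained it and 2 (Wnt7b, regional medians) moved. A value that stayed uncalled could still change sign. Axin2 between the untreated lines went from 0.19 to -0.70 without untreated knockout replicate 1. Tcf7l2, knockout against parental with TGF-β (0.30), passed under 6 alternatives, with the replicate block among them. The cause of these changes was not tested.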

Other observations

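Values near Wnt9a were looked at after its most similar gene, Jmjd4, was seen to lie on the same chromosome. Of 21 other genes tested that start within 500 kb of the Wnt9a start, 10 were called higher and 2 lower with TGF-β in parental cells, and 6 higher and 2 lower in knockout cells. Over all tested genes 42.5% were called in parental cells (21.3% higher) and 41.4% in knockout cells (20.9% higher). The higher calls near Wnt9a stood above their share in both lines, more so in parental cells. The knockout calls of both directions together did not exceed theirs. The window was chosen after seeing the data, so no cluster is read from these values. On the far side of the Wnt9a end, Snap47 rose by 0.59 ± 0.10 (edgeR, adjusted p = 8.52e-04) in parental and 0.83 ± 0.10 (adjusted p = 6.02e-05) in knockout cells, Jmjd4 by 1.15 ± 0.09 (adjusted p = 1.62e-06) and 0.85 ± 0.09 (adjusted p = 1.57e-05), and the zinc finger gene Zfp867 by 0.96 ± 0.13 (adjusted p = 1.00e-04) and 0.98 ± 0.13 (adjusted p = 9.14e-05). Snap47 and Jmjd4 overlap at their ends. On the other side Arf1, a GTPase of vesicle coats, was at -0.01 ± 0.08 (adjusted p = 0.932) and 0.16 ± 0.08 (adjusted p = 0.159).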
